A study of Mus musculus with 8 samples.

Results

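The genes described here are the 7 that set the phosphorylation of eIF2alpha at the head of the integrated stress response (ISR): the kinases Eif2ak1, Eif2ak2, Eif2ak3 and Eif2ak4, the phosphatase subunits Ppp1r15a and Ppp1r15b, and 0610009O20Rik, the older symbol of Dele1. They were taken by name, and all 7 were among the 14012 genes in the table of counts for quadriceps femoris (QF) muscle. The interval given for 0610009O20Rik was that of Dele1 in RefSeq on GRCm38.p6. RNA came from 4 Grpel1skm-/- mice and 4 Grpel1 flox/flox controls, 1 library per mouse. In the knockouts a tamoxifen-inducible Cre under the human skeletal muscle alpha-actin promoter deletes the floxed Grpel1, so that cells of other types in the muscle keep the gene. Per the study's methods tamoxifen was given at 5 weeks of age for 5 days and the mice were male and sacrificed within 5 weeks of it. The labels give no treatment. Where it describes body weight the study calls its floxed littermates untreated, and its figure there also has Cre-free floxed mice given tamoxifen. For the sequenced controls it does not say whether they had tamoxifen. All controls carry the floxed alleles as well.

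GRPEL1 is the nucleotide exchange factor of the mitochondrial HSP70 that pulls proteins into the matrix. In the ISR each kinase answers to its own signal and phosphorylates the same serine of eIF2alpha, which blocks the exchange factor eIF2B, lowers general translation and favours translation of ATF4. Eif2ak1 (HRI) responds to lack of heme and, through DELE1 released from mitochondria after cleavage by OMA1, to mitochondrial stress. Eif2ak2 (PKR) responds to double-stranded RNA, Eif2ak3 (PERK) to unfolded protein in the endoplasmic reticulum (ER), and Eif2ak4 (GCN2) to uncharged tRNA and stalled ribosomes. Ppp1r15a (GADD34, induced in stress) and Ppp1r15b (CReP, made constitutively) bring protein phosphatase 1 (PP1) to eIF2alpha. The counts measure RNA only, and neither kinase activity nor phosphorylation was read from them.

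The libraries held 16017565 to 20361144 counts. Values are CPM, counts scaled to a common library size, with the library sizes corrected by TMM, a factor for composition, and tests are edgeR's quasi-likelihood test, adjusted over all genes by Benjamini-Hochberg, past the threshold at an adjusted p under 0.01. The scaling mattered for direction. TMM factors were 0.747 to 0.844 in control QF and 1.19 to 1.33 in knockout QF, and the median of all genes' log2 fold changes was 0.065 with TMM and 0.73 with library totals alone. The summed CPM of 6 myofibre genes was 215173 to 286202 in control QF and 68455 to 96202 in knockout QF, with 5 lower and 1 higher. Of the other cell types the summed CPM of leukocyte markers was 30.4 to 74.9 in control QF and 59.2 to 104 in knockout QF (1 of 6 higher), of endothelial markers 243 to 360 and 175 to 196 (4 of 5 lower), of fibroblast markers 1292 to 1819 and 529 to 774 (3 of 5 lower), and of satellite cell markers 3.07 to 4.87 and 6.13 to 7.75 (1 of 2 higher). Mural cell markers summed to 109 to 167 and 93.0 to 108 (1 of 3 lower), Schwann cell markers to 23.8 to 83.4 and 38.4 to 62.0 (0 of 3 past the threshold by edgeR and 1 at an unadjusted p under 0.05), adipocyte markers to 34.3 to 1126 and 412 to 1844 and the 5 erythroid markers analysed to 41.1 to 102 and 8.61 to 96.7 (in both lists 0 past the threshold and 0 at an unadjusted p under 0.05). None of these markers was at 0 in any library. The part of cell composition in the results was not tested, and in whole muscle fewer cells of a type and less RNA per cell cannot be told apart. Grpel1 itself had 64.1 to 71.2 CPM in control QF and 59.9 to 71.9 CPM in knockout QF, so the whole-gene count does not check the labels and every direction rests on them.

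Of the 7 genes 2 rose (Ppp1r15a and Ppp1r15b), 2 fell on the TMM scale (Eif2ak1 and 0610009O20Rik, which turned to higher values with library totals alone) and 3 did not pass the test (Eif2ak2, Eif2ak3 and Eif2ak4). Over all 14012 genes 44.7% passed in either direction, 23.6% higher and 21.1% lower. The groups did not overlap for the same 2 higher and 2 lower genes, against 29% of all genes that lay wholly higher and 24.4% that lay wholly lower. The number of calls among these genes is thus near that of the table as a whole, and what follows is the direction and size in each gene.

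**Figure D1:**
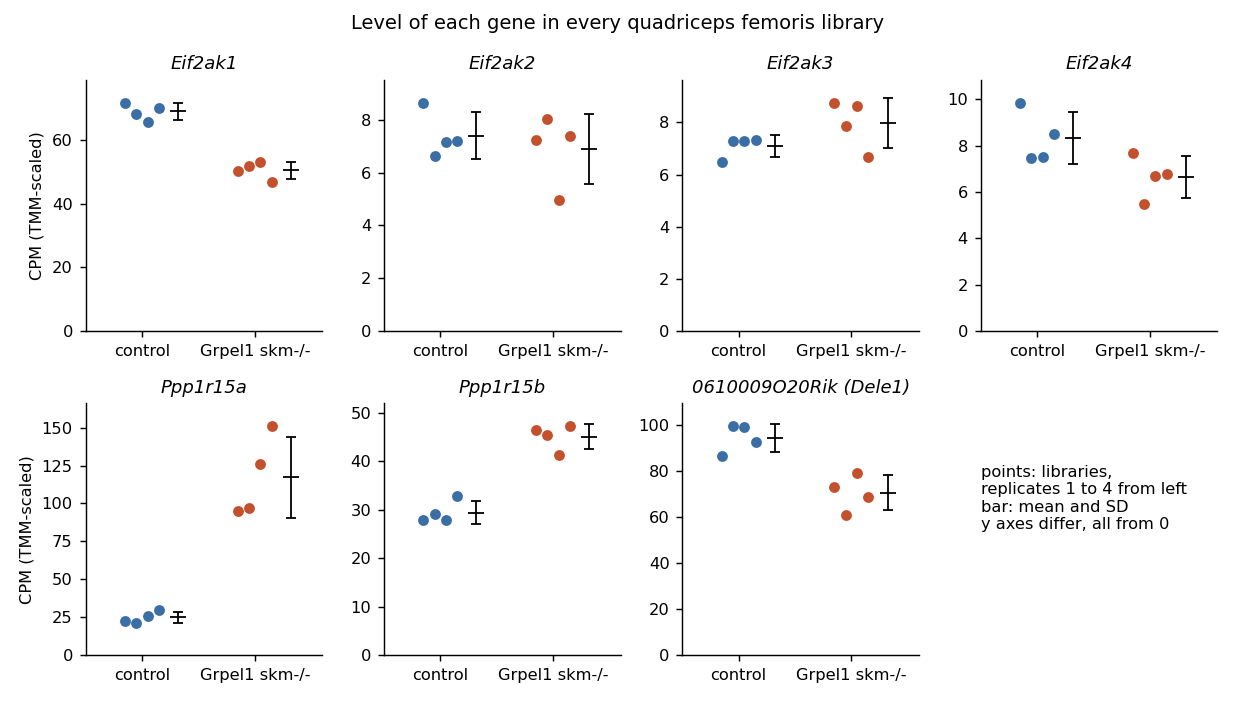
TMM-scaled CPM (y axes, from 0, each on its own scale) of the 7 genes in the 4 control and 4 Grpel1 skm-/- libraries (points, replicates 1 to 4 from the left), with the mean and SD as bars. Ppp1r15a and Ppp1r15b lie wholly higher in knockout QF, Eif2ak1 and 0610009O20Rik wholly lower on this scale though not with library totals alone, and the groups overlap for the other 3 kinases.

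The largest change was in Ppp1r15a, the stress-induced phosphatase subunit, a gene on the minus strand of chromosome 7 (45522917 to 45526268 in GRCm38). Its counts were 279, 322, 360 and 472 in control libraries 1 to 4 and 2273, 2113, 3051 and 3796 in knockout libraries 1 to 4. These were 22.5, 21.1, 25.8 and 29.7 CPM in control QF and 94.8, 96.8, 126 and 151 CPM in knockout QF. Every knockout library lay far higher than every control, and knockout replicates 3 and 4 stood higher than replicates 1 and 2. The mean was 24.8 ± 3.84 CPM in control QF and 117 ± 26.7 CPM in knockout QF (SD, n = 4 per group), a ratio of 4.72. The log2 fold change was 2.24 (SE 0.17, 95% interval 1.86 to 2.62, edgeR adjusted p = 3.1e-06), higher than that of 97.0% of all genes.

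The sequence around the start of Ppp1r15a is shown because this gene changed most of the 7. RefSeq promoter windows, from 250 bases before a gene's start to 50 after it, were searched for 5 of the 7 genes. Those of Ppp1r15b and 0610009O20Rik were not searched. The search covered both strands for the cAMP response element TGACGTCA, for TGATGNAA, a short form of the composite site of ATF4 with C/EBP factors, and for GAAANNGAA, the type of repeat found in interferon response elements. The window of Ppp1r15a at chr7:45526219-45526518 (GRCm38.p6, minus strand) is given 5′ to 3′ with matches in capitals.
Ppp1r15a: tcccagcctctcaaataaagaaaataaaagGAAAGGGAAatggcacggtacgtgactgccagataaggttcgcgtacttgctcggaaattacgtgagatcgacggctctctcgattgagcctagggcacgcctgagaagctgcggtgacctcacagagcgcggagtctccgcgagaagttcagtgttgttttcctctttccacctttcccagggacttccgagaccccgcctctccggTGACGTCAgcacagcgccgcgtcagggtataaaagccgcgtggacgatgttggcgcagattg
TGACGTCA stood at positions -12 to -5, where position 0 is the first base of the gene, and is found in 1.79% of the 32851 windows of this length in the mouse. A GAAANNGAA match stood at -220 to -212, and such a match is in 8.56% of windows. TGATGNAA, in 3.97% of windows, was not in this one. A match is a run of letters and no measured binding site.

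Ppp1r15b, the constitutive subunit, also rose but by much less. The gene lies on chromosome 1 from 133131166 to 133139800 on the plus strand. Its counts were 346, 444, 389 and 522 in control libraries 1 to 4 and 1113, 991, 1001 and 1189 in knockout libraries 1 to 4, or 28, 29.1, 27.8 and 32.9 CPM against 46.4, 45.4, 41.3 and 47.3 CPM. The groups did not overlap, and control replicate 4 was the highest of its group for this gene as for Ppp1r15a. The mean was 29.4 ± 2.37 CPM in control QF and 45.1 ± 2.63 CPM in knockout QF (SD, n = 4 per group), a ratio of 1.53, with a log2 fold change of 0.61 (SE 0.076, 95% interval 0.44 to 0.78, edgeR adjusted p = 7.6e-05). This fold change was higher than that of 77.8% of all genes.

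The ratio of the subunits within a library does not depend on the scaling of the library. Ppp1r15a had 0.806, 0.725, 0.925 and 0.904 counts per count of Ppp1r15b in control libraries 1 to 4, and 2.04, 2.13, 3.05 and 3.19 in knockout libraries 1 to 4. All 4 knockout ratios were higher than all 4 control ratios. These are counts of transcripts of unequal length, with exon widths of 2333 and 5588 bases, and per kb Ppp1r15a was the higher of the pair in both groups. On the log2 scale the ratio rose by 1.61, from -0.26 ± 0.16 to 1.35 ± 0.34 (SD, n = 4 per group), with p = 0.0286 by a two-sided exact permutation test, the smallest p that 4 against 4 allows, and p = 0.0643 after Benjamini-Hochberg adjustment over the 9 ratios compared.

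Among the kinases Eif2ak1 had the most counts by far. It lies on chromosome 5 from 143817792 to 143902717 on the plus strand, with 15 exons and an exon width of 2787 bases. Its counts were 888, 1043, 919 and 1111 in control libraries 1 to 4 and 1203, 1131, 1286 and 1176 in knockout libraries 1 to 4, so that the bare counts were higher in knockout QF. On the TMM scale they were 71.7, 68.3, 65.8 and 70.01 CPM in control QF and 50.2, 51.8, 53.1 and 46.7 CPM in knockout QF, and the groups did not overlap. The mean was 68.9 ± 2.55 CPM against 50.4 ± 2.74 CPM (SD, n = 4 per group), a ratio of 0.732. The log2 fold change was -0.45 with TMM (SE 0.064, 95% interval -0.59 to -0.31, edgeR adjusted p = 1.9e-04) but 0.22 with library totals alone (adjusted p = 0.021), which is -0.52 against the median gene in either case. On the TMM scale 23.0% of all genes had a log2 fold change as low as or lower than that of Eif2ak1. Eif2ak1 is strongly expressed in erythroid cells. The summed erythroid markers overlapped between the groups, and the part of erythroid cells in the Eif2ak1 level was not tested. In GENCODE M21 the exons of Eif2ak1 share 487 bases with those of Aimp2 on the other strand, and Aimp2 had a log2 fold change of -1.96 (edgeR adjusted p = 1.9e-05). The strand setting of the counting is not given in the sources used here, so the part of Aimp2 reads in the Eif2ak1 count was not tested.

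The promoter windows of Eif2ak1, the kinase with the highest level, and Eif2ak2, the only kinase whose window held a match, are shown to set them against that of Ppp1r15a. They lie at chr5:143817542-143817841 (plus strand) and chr17:78882523-78882822 (minus strand) of GRCm38.p6 and are given 5′ to 3′ with matches to the same 3 motifs in capitals.
Eif2ak1: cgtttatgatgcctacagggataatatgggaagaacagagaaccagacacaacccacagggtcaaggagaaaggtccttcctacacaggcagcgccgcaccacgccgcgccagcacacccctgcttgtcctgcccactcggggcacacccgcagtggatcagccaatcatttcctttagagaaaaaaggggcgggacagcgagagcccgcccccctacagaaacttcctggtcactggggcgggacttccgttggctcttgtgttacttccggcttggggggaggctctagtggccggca
Eif2ak2: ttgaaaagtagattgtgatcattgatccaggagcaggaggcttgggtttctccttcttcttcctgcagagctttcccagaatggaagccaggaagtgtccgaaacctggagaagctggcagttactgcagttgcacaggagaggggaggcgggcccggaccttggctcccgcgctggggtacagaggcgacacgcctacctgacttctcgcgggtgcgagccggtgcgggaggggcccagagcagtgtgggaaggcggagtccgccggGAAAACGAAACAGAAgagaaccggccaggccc
The Eif2ak1 window held none of the 3 motifs, nor did those of Eif2ak3 and Eif2ak4. In the Eif2ak2 window 2 GAAANNGAA matches overlapped, at positions 18 to 26 and 24 to 32, past the start of the gene.

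Eif2ak2, the kinase for double-stranded RNA, had 107, 101, 100 and 114 counts in control libraries 1 to 4 and 173, 175, 120 and 186 in knockout libraries 1 to 4. These were 8.64, 6.61, 7.16 and 7.18 CPM against 7.21, 8.01, 4.95 and 7.39 CPM, and the groups overlapped, with knockout replicate 3 the lowest of all 8. Its log2 fold change was -0.10 (SE 0.16, 95% interval -0.46 to 0.26, edgeR adjusted p = 0.61), and 0.58 with library totals alone (adjusted p = 0.016). The gene lies on chromosome 17 from 78852550 to 78882572 on the minus strand.

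Eif2ak3, the kinase of the ER, lies on chromosome 6 from 70844515 to 70905241 on the plus strand. It had 80, 111, 102 and 116 counts in control QF and 210, 172, 209 and 168 in knockout QF, or 6.46, 7.27, 7.30 and 7.31 CPM against 8.76, 7.88, 8.63 and 6.68 CPM. Knockout replicates 1 to 3 were higher than every control and knockout replicate 4 lay within the control range. On the log2 scale the fold change was 0.17 (SE 0.12, 95% interval -0.092 to 0.43, edgeR adjusted p = 0.24), which passed the test only with library totals alone (0.83, adjusted p = 1.2e-04).

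Eif2ak4, the sensor of uncharged tRNA, had 122, 114, 105 and 135 counts in control QF and 184, 120, 162 and 170 in knockout QF. These were 9.86, 7.46, 7.51 and 8.51 CPM against 7.67, 5.50, 6.69 and 6.76 CPM, with knockout replicate 1 inside the control range. Its log2 fold change was -0.32 (SE 0.14, 95% interval -0.63 to -0.013), with an unadjusted p of 0.042 and an edgeR adjusted p of 0.068, and 0.34 with library totals alone (adjusted p = 0.044). Of the 4 kinases it had the second lowest fold change on the TMM scale, without passing the threshold. The gene lies on chromosome 2 from 118388617 to 118475234 on the plus strand and has 39 exons in the table.

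0610009O20Rik (Dele1), the relay from mitochondria to HRI, moved by about the same amount as Eif2ak1. It lies on chromosome 18 from 38250249 to 38262629 on the plus strand. Its counts were 1070, 1521, 1386 and 1470 in control libraries 1 to 4 and 1755, 1335, 1922 and 1729 in knockout libraries 1 to 4, or 86.4, 99.6, 99.2 and 92.6 CPM against 73.2, 61.1, 79.3 and 68.7 CPM. Every knockout library lay lower than every control on this scale, with knockout replicate 2 the lowest. The mean was 94.5 ± 6.22 CPM against 70.6 ± 7.66 CPM (SD, n = 4 per group), a ratio of 0.747. The log2 fold change was -0.42 with TMM (SE 0.089, 95% interval -0.62 to -0.22, edgeR adjusted p = 0.0024) but 0.24 with library totals alone (adjusted p = 0.015), and without knockout replicate 4 the adjusted p was 0.0104, just outside the threshold. On the TMM scale 24.2% of all genes had a log2 fold change as low as or lower than that of 0610009O20Rik. In GENCODE M21 its exons share 145 bases with the lincRNA 1700086O06Rik on the other strand, whose log2 fold change was 1.42 (edgeR adjusted p = 0.002), and the part of those reads was not tested.

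**Figure D2:**
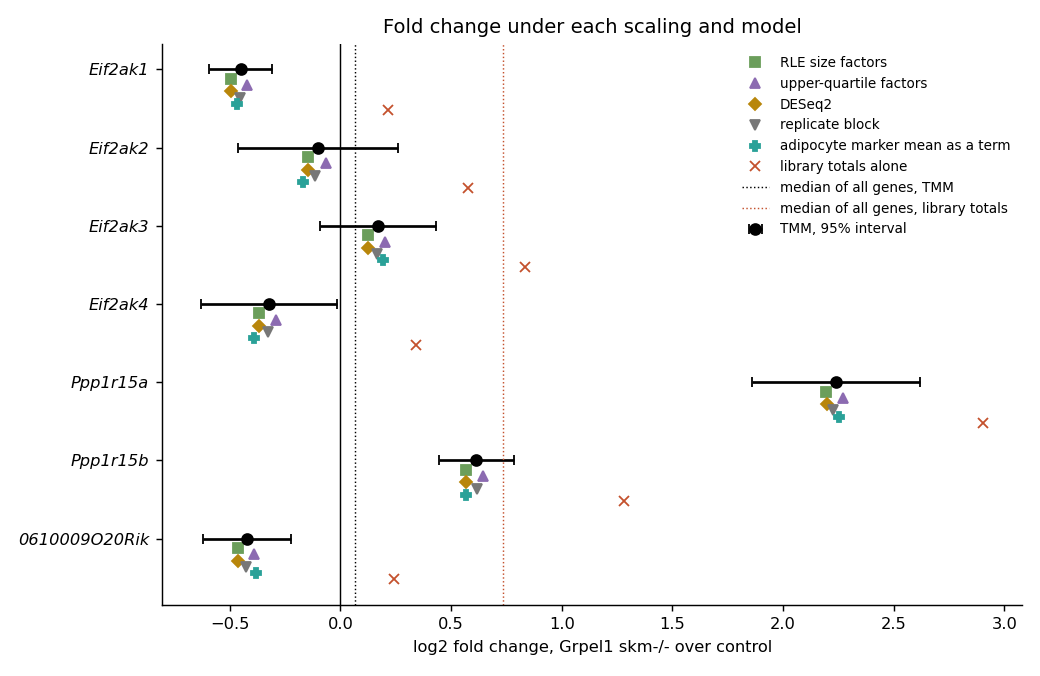
Log2 fold change of Grpel1 skm-/- over control (x axis) for each of the 7 genes (y axis), with the 95% interval of the TMM fit as bars and the values under 6 other scalings or models as symbols. All values but those from library totals alone (crosses) lie close to the TMM value, and with library totals Eif2ak1, Eif2ak2, Eif2ak4 and 0610009O20Rik cross 0 while the median of all genes (dotted lines) moves from 0.065 to 0.73.

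The log2 fold change of Ppp1r15a less that of the median gene was 2.17 to 2.18 with TMM, RLE, upper-quartile factors or library totals, and that of Ppp1r15b was 0.55. The same difference was 0.10 to 0.11 for Eif2ak3, -0.17 to -0.16 for Eif2ak2, -0.39 for Eif2ak4, -0.49 to -0.48 for 0610009O20Rik and -0.52 for Eif2ak1. A change of scaling shifts all genes by nearly the same amount, so these differences are not a check of stability.

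Levels of different genes were set side by side as CPM per kilobase (kb) of the exon width in the table. In the controls 0610009O20Rik was highest at 39.3 ± 2.59 CPM per kb, followed by Eif2ak1 at 24.7 ± 0.91, Ppp1r15a at 10.6 ± 1.65 and Ppp1r15b at 5.27 ± 0.42 (SD, n = 4). Each of these lay wholly higher than the next. Eif2ak2, Eif2ak4 and Eif2ak3 came last at 1.71 ± 0.20, 1.59 ± 0.21 and 1.46 ± 0.086 CPM per kb, and neighbours among these 3 overlapped. In the knockouts Ppp1r15a came first at 50.2 ± 11.4 CPM per kb, then 0610009O20Rik at 29.4 ± 3.19, Eif2ak1 at 18.1 ± 0.98 and Ppp1r15b at 8.07 ± 0.47, again without overlap between neighbours. Eif2ak3 at 1.65 ± 0.20, Eif2ak2 at 1.59 ± 0.31 and Eif2ak4 at 1.27 ± 0.17 CPM per kb again overlapped. Ppp1r15a thus moved from the third place to the first.

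Of the summed level of the 4 kinases per kb, Eif2ak1 made up 83.9% ± 0.61 in control QF and 80.0% ± 1.49 in knockout QF (SD, n = 4 per group), a share that does not depend on library scaling. Eif2ak3 made up 4.98% ± 0.46 and 7.28% ± 0.62, Eif2ak2 5.79% ± 0.51 and 7.07% ± 1.48, and Eif2ak4 5.37% ± 0.51 and 5.62% ± 0.82. Over the 8 libraries the share of Eif2ak1 ran from 78.5% to 84.6%. With the union of all exons in GENCODE M21 as the length, chosen after seeing the data, the share of Eif2ak1 was 76.5% and 71.4%. In control QF the means of 0610009O20Rik and Eif2ak1 then came to 12.8 ± 0.84 and 12.2 ± 0.45 CPM per kb. These means kept their order, but the libraries of the pair overlapped. In knockout QF 0610009O20Rik, Eif2ak1 and Ppp1r15b came to 9.56 ± 1.04, 8.90 ± 0.48 and 8.06 ± 0.47 CPM per kb. Among the weaker kinases the order changed, with Eif2ak3 (1.176) above Eif2ak4 (1.118) in control QF. In knockout QF Eif2ak2 (1.348) lay above Eif2ak3 (1.325). The separation of neighbours given above, and the order among the weaker kinases, thus rest on the deposited exon width.

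**Figure D3:**
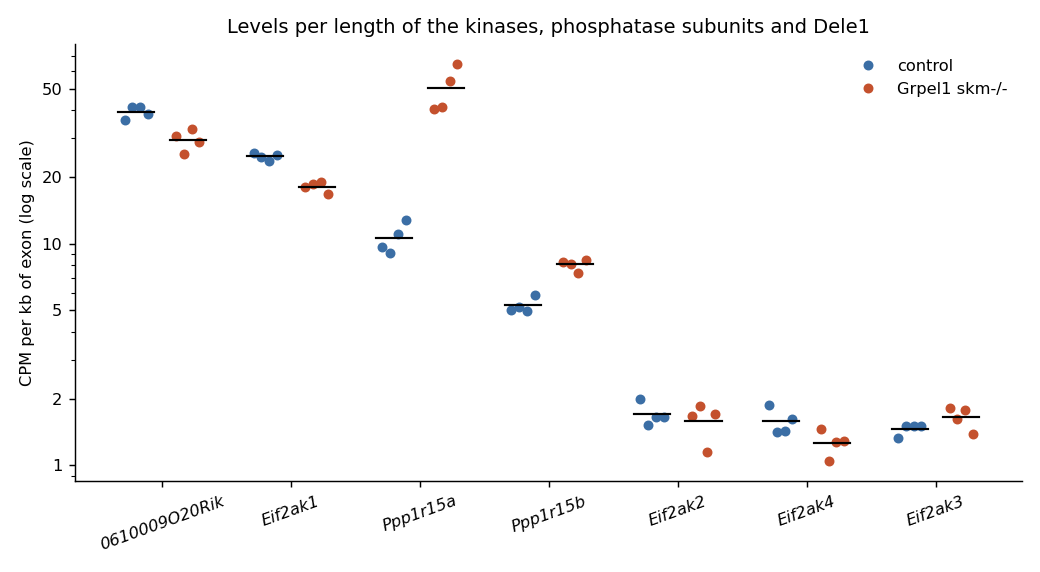
CPM per kb of exon (y axis, log scale) of each gene in the control and Grpel1 skm-/- libraries (points), with the group mean as a line, ordered by the control mean. Ppp1r15a goes from a mean of 10.6 to 50.2 CPM per kb, and the kinases Eif2ak2, Eif2ak3 and Eif2ak4 stay between 1.05 and 1.998 in all libraries.

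Ratios of counts within a library show how the kinases moved against each other, whatever the scaling. Eif2ak1 had 11.1, 9.40, 9.01 and 9.58 counts per count of Eif2ak3 in control libraries 1 to 4 and 5.73, 6.58, 6.15 and 7 in knockout libraries 1 to 4. The groups did not overlap, and the log2 ratio fell by 0.62. Eif2ak3 per Eif2ak4 went from 0.656, 0.974, 0.971 and 0.859 to 1.14, 1.43, 1.29 and 0.988, a rise of 0.49 on the log2 scale without overlap, with knockout replicate 4 just higher than the highest control. Both differences had p = 0.0286, the smallest possible in a two-sided exact permutation test, and p = 0.0643 adjusted over the 9 ratios, so that neither passes after adjustment.

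The other 4 ratios between kinases overlapped between the groups. The log2 difference was -0.33 for Eif2ak1 over Eif2ak2 (exact permutation p = 0.143, adjusted p = 0.257), -0.13 for Eif2ak1 over Eif2ak4 (p = 0.371, adjusted p = 0.45), -0.28 for Eif2ak2 over Eif2ak3 (p = 0.371, adjusted p = 0.45) and 0.21 for Eif2ak2 over Eif2ak4 (p = 0.4, adjusted p = 0.45). Knockout replicate 3, which had the lowest Eif2ak2, stood apart from the other knockouts in the first of these, at 10.7 against 6.32 to 6.95.

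0610009O20Rik over Eif2ak1 held almost the same ratio in both groups, 1.21, 1.46, 1.51 and 1.32 in control QF and 1.46, 1.18, 1.495 and 1.47 in knockout QF (log2 difference 0.027, exact permutation p = 0.886). Against Oma1, the gene of the protease that cleaves DELE1, 0610009O20Rik went from 2.48, 3.12, 3.09 and 3.28 to 4.05, 3.80, 4.16 and 4.42. This log2 ratio rose by 0.46 without overlap (exact permutation p = 0.0286, adjusted p = 0.0643), since Oma1 stood lower still.

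**Figure D4:**
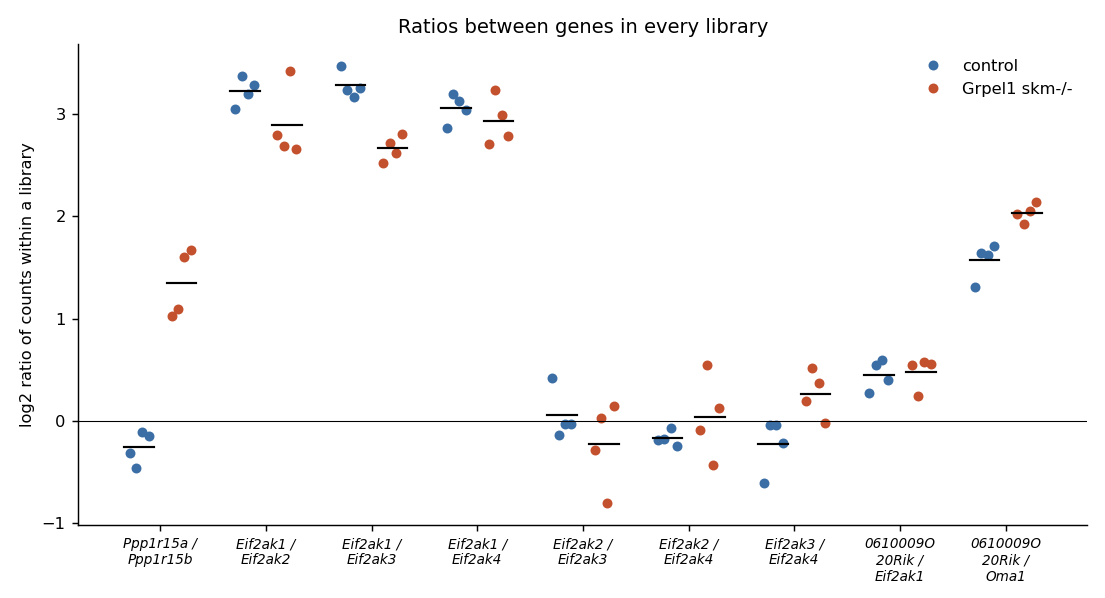
Log2 ratio of counts within each library (y axis) for the 9 pairs of genes (x axis), control and Grpel1 skm-/- libraries as points and the group means as lines. The groups are apart for Ppp1r15a / Ppp1r15b, Eif2ak1 / Eif2ak3, Eif2ak3 / Eif2ak4 and 0610009O20Rik / Oma1, and overlap for the other 5 pairs.

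Genes around these 7 were counted in lists by role. Over all 14012 genes 23.6% rose and 21.1% fell on the TMM scale. With library totals alone 8498 of all genes were higher and 873 lower, which the list counts below should be read against. Of 10 genes for the substrate complex and its exchange factor (eIF2 and eIF2B subunits and eIF5), 4 rose, 0 fell (0 also by DESeq2 and at an unadjusted p under 0.05) and 6 did not pass, with a median log2 fold change of 0.24 beside 0.065 for all genes. Eif2s1, which encodes eIF2alpha itself, had 54.8, 52.2, 58.6 and 46.9 CPM in control QF and 69.9, 64.6, 68.3 and 65.2 CPM in knockout QF (log2 fold change 0.34, SE 0.077, edgeR adjusted p = 0.0038). Eif2s1 did not pass without control replicate 2 or without knockout replicate 1 or 3 (adjusted p of 0.0103 to 0.0129). Eif2s2 (0.44), Eif2b3 (0.51) and Eif5 (0.71) were the others that rose. None of the 4 other factors that deliver initiator tRNA passed by edgeR or DESeq2, and 0 had an unadjusted p under 0.05 (median log2 fold change 0.036). With library totals alone all 10 and all 4 were higher.

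Of 6 genes for PP1 and its partners, on the TMM scale 2 rose and 4 fell, with a median log2 fold change of -0.42, while with library totals alone 3 were higher and 0 lower. The catalytic subunits Ppp1cc (-0.77) and Ppp1cb (-0.55) and the adaptor Nck1 (-0.50) fell and the inhibitor Ppp1r11 rose (0.60), as did, named after its value was seen, the remaining catalytic subunit Ppp1ca (0.35). The other that fell was the inhibitor Ppp1r2 (-0.35), likewise named after its value was seen. Ppp1cc had 71.9, 66.3, 80.0 and 64.6 CPM in control QF and 42.5, 42.1, 43.1 and 38.2 CPM in knockout QF, without overlap.

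Of 14 regulators of the kinases 5 rose, 2 fell and 7 did not pass on the TMM scale (median log2 fold change 0.19), where 44.7% of all genes passed in either direction. Under library totals alone 12 were higher and 0 lower. Hspa5 (BiP), the ER chaperone that holds PERK inactive, had 213, 231, 227 and 216 CPM in control QF and 537, 553, 591 and 569 CPM in knockout QF (log2 fold change 1.34, edgeR adjusted p = 3.5e-07). Rplp0, Rplp1 and Rplp2, the ribosomal stalk proteins that can activate GCN2, rose by 1.03, 1.03 and 1.02 on the log2 scale. The study reports that transcripts for subunits of the cytosolic ribosome were strongly raised in this muscle. Whether the stalk genes rose apart from that family was not tested. Beside Oma1 the chaperone Hspa8 fell (-0.63), though it did not pass without control replicate 1, 2 or 3, without knockout replicate 1 or 4, or with an adipocyte term (adjusted p of 0.0105 to 0.0149), and Gcn1l1, the partner of GCN2 on ribosomes, was the last that rose (0.45), both named after their values were seen. Dnajc3 (P58IPK), an inhibitor of PERK and PKR, had 49.6 to 59.0 CPM in control QF and 49.5 to 56.8 CPM in knockout QF (log2 fold change -0.025, edgeR adjusted p = 0.80).

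Oma1 had 432, 488, 449 and 448 counts in control QF and 433, 351, 462 and 391 in knockout QF, or 34.9, 31.9, 32.1 and 28.2 CPM against 18.1, 16.1, 19.1 and 15.5 CPM. Its log2 fold change of -0.89 (SE 0.093, edgeR adjusted p = 2.6e-05) was the lowest among the 9 genes of the inner membrane and import route around DELE1, of which on the TMM scale 2 rose, 4 fell and 3 did not pass (median 0.015). With library totals alone 6 were higher and 0 lower. Opa1, a substrate of OMA1 in inner membrane fusion, stood at -0.63, while the matrix protease Lonp1 (1.004) and the prohibitin Phb2 (0.55) rose. The other prohibitin Phb (-0.51) and the import channel gene Timm23 (-0.38), both named after their values were seen, fell on the TMM scale.

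The list of ATF4, CHOP and their targets had the largest median log2 fold change of the lists. The study had already named Fgf21, Gdf15, Ddit3, Mthfd2 and Psat1 as induced in these libraries. This rank was thus partly set by the choice of genes, and whether the changes run through eIF2alpha was not tested. Of 18 genes for ATF4, CHOP and their targets 15 rose, 1 fell (Vldlr, -0.77) and 2 did not pass (Chac1, -1.15, and Ddit4, 0.26), the last 3 named after their values were seen. Chac1 was lower past the threshold without control replicate 2 (-1.41, edgeR adjusted p = 0.0021). The median log2 fold change was 2.499, and 15 were higher and 0 lower with library totals alone. Atf4 had 166, 160, 197.9 and 166 CPM in control QF and 394, 372, 438 and 447 CPM in knockout QF (log2 fold change 1.26, edgeR adjusted p = 3.0e-06). Ddit3 (CHOP), the factor that induces Ppp1r15a, had 10.2, 10.3, 10.8 and 10.8 CPM and 50.5, 78.3, 55.3 and 74.9 CPM (log2 fold change 2.62, edgeR adjusted p = 5.9e-07), beside 2.24 for Ppp1r15a. Trib3, an inhibitor of ATF4 and CHOP, had 12 to 31 counts in control QF and 3060 to 4097 in knockout QF. Fgf21, an endocrine factor, had 0 counts in every control library and 430 to 787 in knockout QF, at least 125-fold higher against a floor of 3 counts per control library. Gdf15, the other endocrine factor of the list, had 0 to 2 counts in control QF and 786 to 1555 in knockout QF, and the cystine transporter gene Slc7a11 had 0 to 3 and 197 to 254.

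Of 13 genes for the other ER sensors and their targets 11 rose, 0 fell (0 also by DESeq2 and at an unadjusted p under 0.05) and 2 did not pass (median log2 fold change 0.59). Those that rose most were the sensors Ern1 (2.39) and Atf6 (1.97) and the ER chaperone and degradation genes Sdf2l1 (1.38) and Edem1 (1.03). Eif2ak3, also an ER sensor, stood at 0.17 beside 2.39 for Ern1 and 1.97 for Atf6. Atf6b, of the same list and named after its value was seen, rose by 0.59 on the log2 scale. The difference between these fold changes was not tested. Of 15 interferon-induced genes, a list looked at because Eif2ak2 is interferon-induced, 1 rose, 0 fell and 14 did not pass (median 0.036), with 0 lower by DESeq2 and 2 lower at an unadjusted p under 0.05. The gene that rose, Rsad2, had 5.08 to 7.53 CPM in control QF and 7.39 to 13.8 CPM in knockout QF (log2 fold change 0.76, edgeR adjusted p = 0.0088), with overlap, and it did not pass with RLE factors, with an adipocyte term or in 7 of the 8 fits without 1 library (all but that without knockout replicate 3), where the adjusted p reached 0.0268. With library totals alone all 13 ER genes and 8 of the 15 interferon genes were higher.

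**Figure D5:**
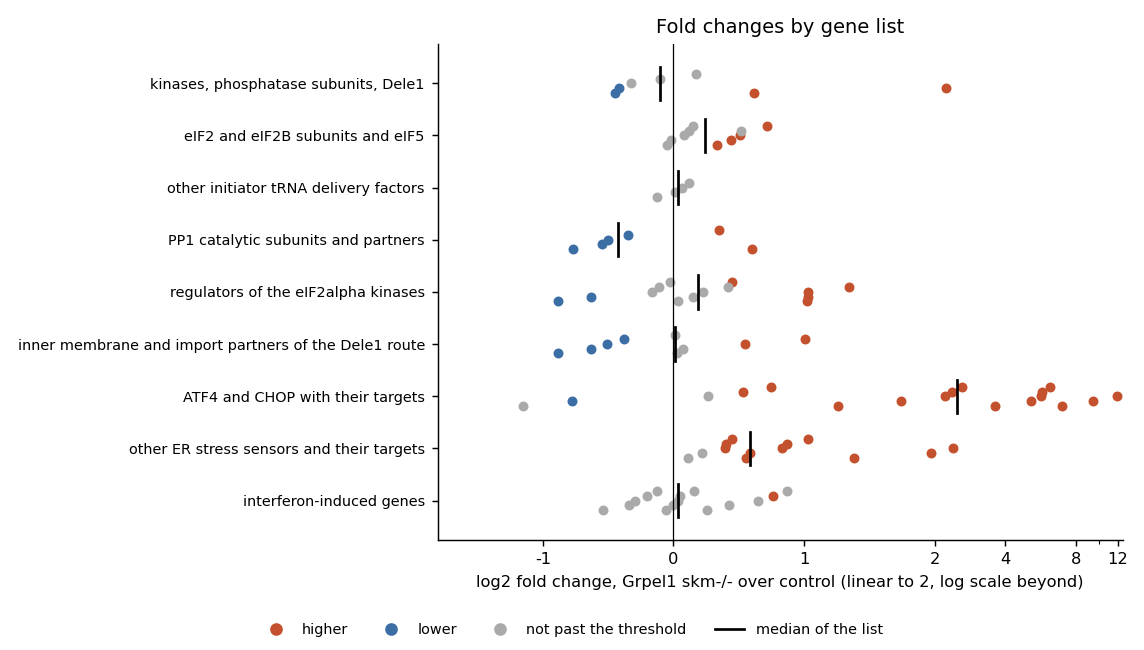
Log2 fold change of Grpel1 skm-/- over control with TMM (x axis, linear to 2 and on a log scale beyond) for the 7 genes (top row) and the 8 lists by role (y axis), each gene a point coloured by whether it was higher, lower or not past the threshold and each list's median a line. The list of ATF4 and CHOP targets reaches farthest right with a median of 2.499, its rightmost point being Fgf21, whose fitted value rests on 0 counts in control QF, and most points to the left of 0 turn to higher values with library totals alone.

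The genes closest in profile were sought among the 8605 genes that averaged 100 counts or more in each group, by the root mean square difference over the 8 libraries in log2 CPM taken relative to each gene's control mean. Nearest to Ppp1r15a were Nupr1 (0.13), a stress-induced gene that was also on the list of ATF4 and CHOP targets, and Pla2g12a (0.17), a secreted phospholipase gene. Nearest to Ppp1r15b were Trove2 (0.053) and Galc (0.057), to Eif2ak1 Kdm3b (0.051) and Immt (0.053), a gene of the mitochondrial cristae, and to 0610009O20Rik Stx17 (0.043), a syntaxin of autophagy, and Scmh1 (0.045). The distances are small for genes with small changes, so they are not set against each other between genes.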

How the data were processed

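QF RNA of 4 mice labelled knockout and 4 labelled control was analysed, 1 library per mouse with its own animal label. The authors selected polyadenylated RNA, made directional libraries (NEBNext Ultra II) and sequenced both ends. For the deposited raw counts the authors demultiplexed with bcl2fastq 2.20.0.422, trimmed with cutadapt, aligned to GRCm38 with STAR 2.5.4b and counted with Rsubread, without duplicate, chimeric, multimapping or low-quality alignments, and genes with fewer than 50 reads in all were left out. The annotation release and strand setting are not given in the sources used here. Removal of multimapping reads can lower genes with near-identical copies. The authors' DESeq2 1.32.0 results and normalized values stand in the same table and were not used.

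From the counts, all 14012 genes were fitted with edgeR 4.0.16 in R 4.3.3 (TMM, group as the only term, glmQLFTest, Benjamini-Hochberg adjustment). CPM per kb used the deposited exon width. Log2 CPM for profiles had a prior count of 2. Ratios of counts per library were compared by two-sided exact permutation over the 70 assignments. Alternatives covered RLE and upper-quartile factors, library totals alone, a filter on low counts, DESeq2 1.42.0, the replicate number as a block, adipocyte markers as a term and each library left out. Every pair of libraries within a group differed by more than sampling noise. Library totals of 16017565 to 20361144 counts make 3 counts, the limit that a count of 0 allows, 0.119 to 0.242 CPM. This covers counting error only. The procedure was tested on simulated data drawn from control proportions with few genes changed. That setting lacks the shift in composition between the groups, so it does not check the scaling. The 7 genes and the lists were chosen with earlier results of these data known. The genes named outside the 7 were Grpel1, Eif2s1, Oma1, Hspa5, Dnajc3, Atf4, Ddit3, and in each list the genes past the threshold with the largest log2 fold changes in either direction where the higher group averaged 50 counts or more (at most 4 per list), with the 2 nearest profiles of each gene of the 7 past the threshold and the counted genes that overlap them. Other genes are said to be named after their values were seen.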

Additional observations from a re-analysis of the deposited data

Results flagged for a closer look

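In 32 groups of 4 libraries (the CPM of each gene and the ratios, by group) the gap of the highest or lowest library to the others was set against Dixon's limit, which chance passes in about 1 group of 20, and 2 groups passed. The CPM of Eif2ak3 in control replicate 1 was 6.46, lower than the 7.27 to 7.31 of the other controls. The log2 ratio of 0610009O20Rik to Eif2ak1 in knockout replicate 2 was 0.24, lower than the 0.54 to 0.58 of the other knockouts, and this library also had the lowest CPM of 0610009O20Rik. The cause of these gaps was not tested.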

How the results depend on the processing

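With library totals alone in place of TMM, the log2 fold changes of Eif2ak1 (0.22), Eif2ak2 (0.58), Eif2ak4 (0.34) and 0610009O20Rik (0.24) reversed and that of Eif2ak3 passed the threshold (0.83), while 9371 genes passed in all, 8498 higher and 873 lower, against 6265 with TMM, 3303 higher and 2962 lower. By construction this scaling leaves in the shift of the median gene to 0.73. Without 1 library at a time the log2 fold change of 0610009O20Rik ranged from -0.51 to -0.37, with an adjusted p of 9.4e-04 to 0.0104, and failed the threshold without knockout replicate 4 alone. Under the other settings each of the 7 genes kept its direction and its side of the threshold, the count of genes past the threshold stayed within 1.5 times its value and the 9 ratios moved by less than their pooled within-group SD, with log2 fold changes of 2.08 to 2.34 for Ppp1r15a and 0.57 to 0.67 for Ppp1r15b without 1 library. Without knockout replicate 2 the log2 difference of Eif2ak2 over Eif2ak4 went from 0.21 to 0.039, and without knockout replicate 3 those of Eif2ak2 over Eif2ak3 from -0.28 to -0.093 and of Eif2ak1 over Eif2ak2 from -0.33 to -0.51. Without knockout replicate 1 that of Eif2ak1 over Eif2ak4 went from -0.13 to -0.052. A prior count of 0.5 kept 7 of the 8 nearest profiles. With exon lengths from GENCODE M21, added after seeing the data, the share of Eif2ak1 among the kinases was 76.5% and 71.4%. The replicate number as a block gave 6123 genes and changed no call of the 7, while Chac1 passed (-0.99, adjusted p = 0.0044). Deviations of same-numbered libraries from their group means correlated at 0.12, 0.0031, 0.42 and 0.14. As not all were over 0.1, the numbers were not taken to pair the libraries. Still, 6 of the 8 libraries correlated best with their own number, and the highest correlation between other numbers was 0.11. What same-numbered libraries may share was not tested. At 80 to 210 counts per library the 3 weak kinases had 95% intervals of the log2 fold change over 0.5 wide, and differences inside them were not detectable with these counts and 4 mice per group.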
